A study of Homo sapiens with 34 samples.

Results

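COLO320 DM cells transfected with a combination of sgRNA plasmids (ecSEcombo) were compared with COLO320 DM cells given a single plasmid at a time (ecSE1, ecSE2, ecSE3 or ecSE4), at the genomic sites that each single plasmid marked. COLO320 DM is a colorectal adenocarcinoma line that carries the oncogene MYC on extrachromosomal DNA (ecDNA), circles of DNA outside the chromosomes. The mark was H3K9 methylation, read by CUT&Tag with 50000 nuclei per library. Every group, the vector included, received 700 ng of plasmid DNA by lipofectamine 3000 and was collected on day 3. Each of the 6 groups had 3 libraries, so the comparison rests on 15 of the 34 libraries of the series, with 3 vector libraries as the background. Sites were the stretches of DNA covered by a peak among the 100 best of all 3 lists of a plasmid, ranked by q-value, and by no peak among the 100 best of any vector list. A site of exactly 1 plasmid was found 34 times among 122 stretches shared by the 3 lists of any group, with 7 for ecSE1, 9 for ecSE2, 10 for ecSE3 and 8 for ecSE4. The labels do not say which plasmids the combination holds or in what proportions or where the ecSE elements lie, they do not name the protein that the guides recruit, and they call the antibody anti-H3K9me without the degree of methylation.

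Methylated H3K9 is a mark of heterochromatin, where nucleosomes are packed and transcription is low. Repressors that are brought to DNA by a guide RNA can deposit it at their target, and the mark can spread to neighbouring nucleosomes. Super-enhancers are dense clusters of enhancers, and on ecDNA they drive high transcription of the oncogene beside them. MYC encodes a transcription factor that drives growth and proliferation. The gene desert upstream of MYC holds enhancers and the long noncoding RNA genes CASC21, CASC8 and CCAT2, all named for links to cancer, and the neighbouring long noncoding RNA gene PVT1 is often amplified together with MYC.

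The deposited lists held 9385 to 125213 peaks on the autosomes and the X chromosome. The longest was that of ecSE1 replicate 2, and the other 17 held at most 33363. Between 63 and 76 of the 100 best peaks of each list lay on chromosome 8. Each peak came with a fold, the ratio of its summit to the local background of the same library. From the fold and the p-value the whole number of fragments at the summit was recovered, and this height was divided by its median over 57 stretches that ranked among the 200 best in all 18 lists. A scaled height of 1 is therefore a typical strong peak of that library. In bulk cells, fewer marked cells or ecDNA copies and less mark per copy cannot be told apart. The labels do not say whether replicates are separate cultures, so p-values measure a spread between libraries that may be only technical.

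The combination lists carried peaks at the sites of all 4 plasmids at once. Of the 100 best peaks, 23, 24 and 20 lay at one of the 34 sites in the 3 combination lists, against 6 to 11 in the 12 single-plasmid lists. The rule allows 0 in the 3 vector lists. In the combination lists 4 to 5 of these peaks lay at ecSE1 sites, 5 to 6 at ecSE2 sites, 4 to 8 at ecSE3 sites and 6 to 7 at ecSE4 sites. The lists of ecSE1 had 5 to 7 at their own sites, those of ecSE2 9, those of ecSE3 10 and those of ecSE4 8, numbers that the choice of the sites fixes. At the sites of other plasmids the single-plasmid lists had 0 to 2. These are counts of peaks, and several peaks can lie at 1 site or 1 peak at several sites. Counted as sites, the 100 best of the 3 combination lists held 5, 6 and 6 for ecSE1 and 3, 7 and 4 for ecSE3. For ecSE2 they held 6 in each list, and for ecSE4 7 in each. A peak of any rank lay at 34, 33 and 33 of the 34 sites in the combination lists, against 18, 18 and 19 in the vector lists. The median rank of a site was later in the combination lists than in the lists of its own plasmid, which chose it, at 31 of 34 sites and earlier at 3 (ecSE2 site 6, ecSE3 site 5 and ecSE4 site 7). At ecSE2 site 6 the peak of combination replicates 2 and 3 is also that of site 7. Combination replicate 1 ranked 25 there, against 13 to 22 under ecSE2. At ecSE4 site 7 the peak of combination replicate 1 is also that of site 6. At ecSE3 site 5 the median rank was 42 in the combination lists (42 to 101) and 43 under ecSE3 (35 to 53). In the combination lists the median rank of the ecSE3 sites was 134, 60 and 101 in the 3 combination lists, and that of the ecSE1 sites was 29, 52 and 44. When stretches were chosen in the same way from the combination lists, 20 were found, and each was also the site of 1 plasmid (5 of ecSE1, 6 of ecSE2, 3 of ecSE3 and 6 of ecSE4). No stretch was found in the combination alone.

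**Figure D1:**
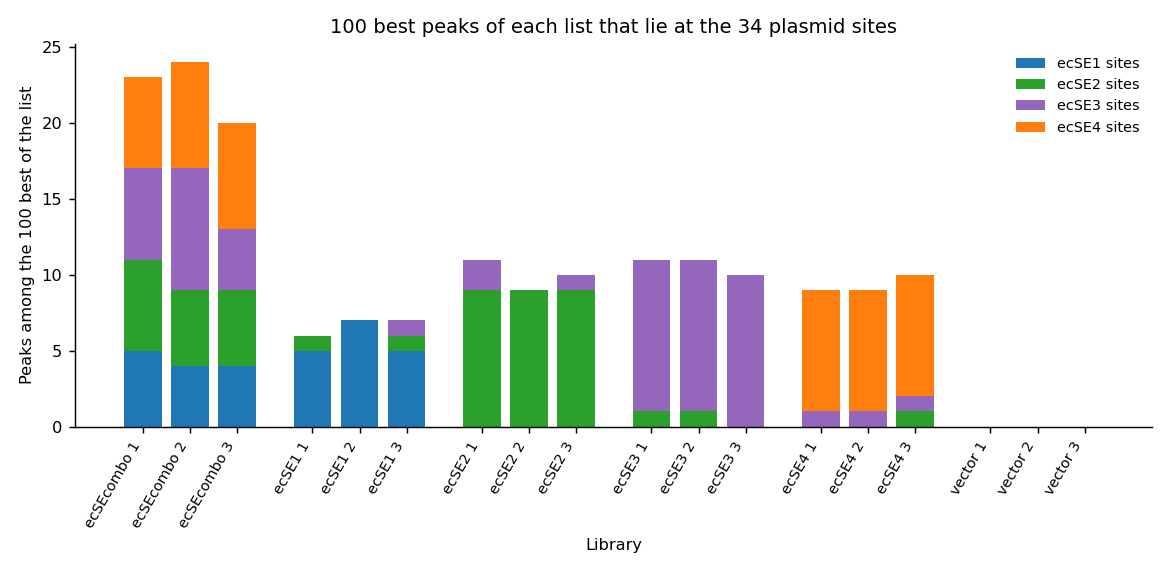
Number of the 100 best peaks of each list (y axis) that lie at the sites of each plasmid (colours), for each of the 18 libraries. The combination lists hold 20 to 24 such peaks spread over the sites of 4 plasmids, and the single-plasmid lists 6 to 11. The choice of sites fixes the 0 of the vector lists and the counts of each plasmid at its own sites.

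The tallest site of each plasmid shows the same in summit heights. At ecSE1 site 4 (hg38, chr8:127246253-127248353, inside CASC21) the scaled height was 9.21, 10.5 and 9.42 in the combination libraries and 13.0, 14.6 and 12.9 in the ecSE1 libraries. Among the 9 libraries of other plasmids 2 had a peak there, of 0.268 and 0.223. At ecSE2 site 7 (chr8:127402103-127405020, inside CASC8 and over part of CCAT2) it was 5.74, 5.98 and 5.58 in the combination libraries and 9.30, 9.66 and 8.83 in the ecSE2 libraries. All 3 combination libraries were therefore below all 3 libraries of the own plasmid at both sites, and far above the other plasmids. At ecSE3 site 6 (chr8:127794788-127796408, at the start of PVT1 and over the microRNA gene MIR1204) the values were 4.08, 4.61 and 4.24 in the combination libraries and 10.8, 11.0 and 12.0 in the ecSE3 libraries. No list of another plasmid or of the vector had a peak there. At ecSE4 site 6 (chr8:127741591-127742573, inside MYC) the values were 2.89, 3.01 and 3.00 in the combination libraries and 8.37, 7.78 and 7.16 in the ecSE4 libraries. In these libraries the combination kept 72.0%, 62.3%, 38.4% and 38.2% of the own-plasmid mean height at the ecSE1, ecSE2, ecSE3 and ecSE4 site, in that order.

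Summed over these 4 sites, the scaled height was 22.8 ± 1.2 in the combination libraries (SD, n = 3). The sum was 13.7 ± 0.963 in ecSE1, 9.44 ± 0.582 in ecSE2, 11.6 ± 0.544 in ecSE3 and 8.06 ± 0.711 in ecSE4 libraries (SD, n = 3 each), counting a missing peak as 0. Each single-plasmid sum comes almost wholly from its own site, and the combination libraries lay between 21.9 and 24.1, above the highest single-plasmid value of 14.9. The combination sum was 54.5% of the 41.8 obtained by adding the 4 own-plasmid means. The 4 sites were picked for the tallest own-plasmid mean among sites of exactly 1 plasmid. This choice favours high own-plasmid means and low heights under the other plasmids, so the 54.5% is only a description.

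**Figure D2:**
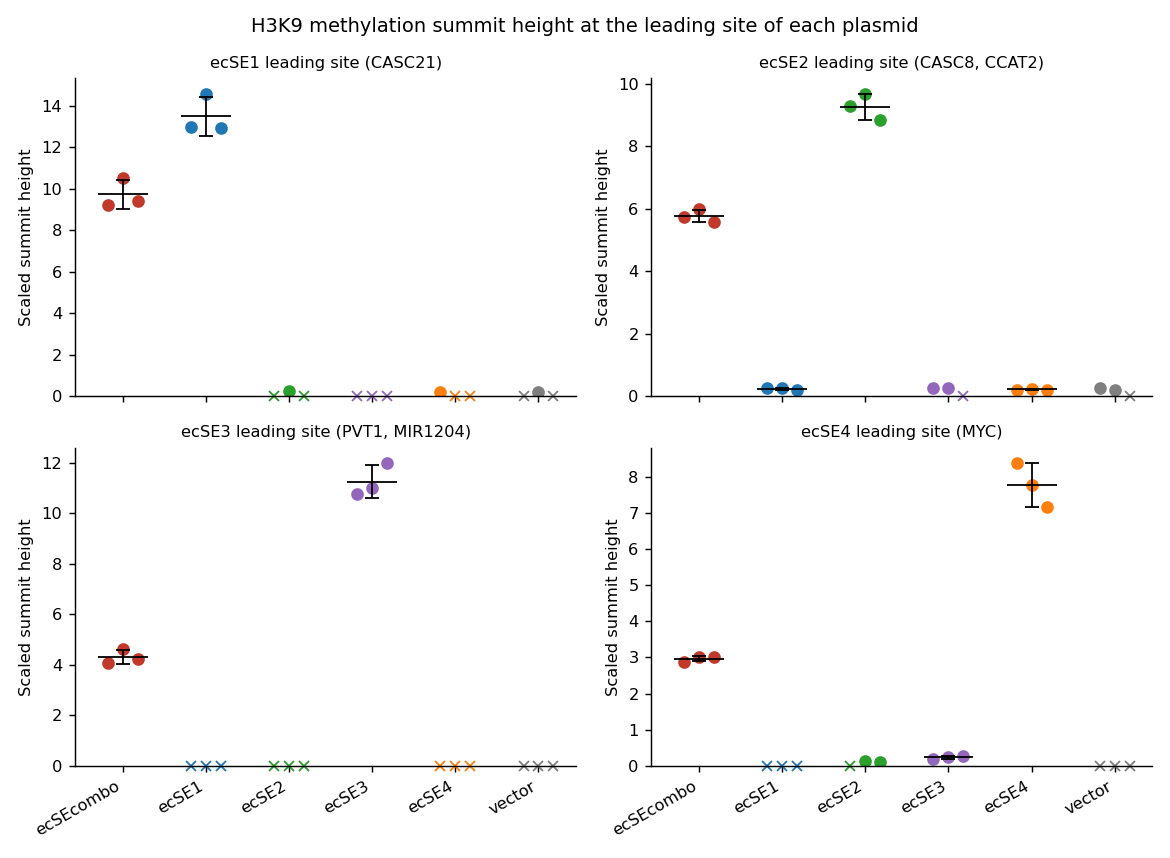
Scaled summit height (y axis, 1 is the median of the 57 strong shared peaks of the library) at the tallest site of each plasmid, by group. Points are libraries, crosses are libraries without a peak, and lines with bars are mean ± SD where all 3 libraries have a peak. The combination stands below the own plasmid and above the other groups in each panel.

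The ecSE1 sites lie in the gene desert upstream of MYC. Of the 7 sites, 5 lie inside CASC21, between 127245181 and 127251126 on chromosome 8, site 2 lies 4401 bp outside that gene, and site 1 lies 182 bp from CCAT1, a long noncoding RNA gene named for colon cancer. At the 5 CASC21 sites the combination kept between 57.4% and 77.5% of the own-plasmid height. Site 3 had 4.96, 10.5 and 9.42 in the combination libraries and 13.0, 6.25 and 12.9 in the ecSE1 libraries, so that the groups overlapped. Without ecSE1 replicate 2, the long list, the median log2 ratio of the combination to ecSE1 over the 7 sites was -0.61, against -0.60 with it. Sites 3 and 4 are covered by one and the same peak in combination replicates 2 and 3 and in ecSE1 replicates 1 and 3, so they are not separate measurements there. The same holds for sites 6 and 7 in the same 4 libraries, and for ecSE4 sites 6 and 7 in combination replicate 1. Site 2 had 2.10, 2.31 and 2.19 in the combination libraries, 3.28, 3.36 and 3.35 in the ecSE1 libraries and 0.419 to 0.553 in the 9 libraries of other plasmids. Site 1, the weakest, had 0.391, 0.445 and 0.277 in the combination libraries and 0.478, 0.724 and 0.449 in the ecSE1 libraries, with 0.261 to 0.408 in the other plasmids.

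Heights were tested with limma across all 122 stretches and 18 libraries, and a list without a peak received the lowest height of its peaks within 100 kb. Relative to the 3 plasmids that did not choose them, 6 of the 7 ecSE1 sites were higher in the combination at an adjusted p under 0.05, where 26.2% of all stretches were called higher, the sites included. Site 2, with a peak in all 18 lists, was higher by 2.18 on the log2 scale (SE 0.09, adjusted p = 1.14e-12). Site 1 was not called (log2 0.09, SE 0.18, adjusted p = 0.771). Relative to ecSE1 itself, 4 of 7 were called lower, beside 3.28% of all stretches.

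The ecSE2 sites stretch from LRATD2, a protein-coding gene, to POU5F1B, a retrogene copy of the pluripotency factor gene POU5F1. Sites 3 to 9 lie between 127391013 and 127416349 on chromosome 8, in CASC8 or its overlap with CASC21, CCAT2 and POU5F1B. Site 6, over CCAT2, a long noncoding RNA gene linked to colon cancer, had 3.74, 5.98 and 5.58 in the combination libraries and 6.27, 6.62 and 5.28 in the ecSE2 libraries, and the groups overlapped. In combination replicates 2 and 3 the peak of site 6 is also that of site 7. Site 8 had 3.47, 3.31 and 3.03 in the combination libraries and 6.96, 7.43 and 6.79 in the ecSE2 libraries. With no overlap between the groups, site 8 kept 46.3%. Sites 3, 4 and 5 kept 52.2%, 51.0% and 53.1%, and site 9, over POU5F1B, kept 58.2%. Site 2, a stretch shared by CASC21 and CASC8 with peaks in every list, kept 88.1%. Its ecSE2 height was 1.44 times the mean of the other plasmids.

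Site 1 of ecSE2 lies inside LRATD2 (chr8:126553556-126555209), 849.4 kb from the tallest ecSE2 site. Its height was 0.280, 0.222 and 0.158 in the combination libraries and 0.582, 0.699 and 0.552 in the ecSE2 libraries. Of the 12 libraries of other plasmids and the vector, 1 had a peak there, of 0.124 in ecSE1 replicate 2. The combination kept 36.0% of the own height at LRATD2, the lowest share among the 9 ecSE2 sites. The fold there was 4.22 ± 0.620 in the combination and 7.15 ± 0.310 in ecSE2 (SD, n = 3 each), the one site whose fold was called lower than under its own plasmid (log2 -0.77, 95% interval -1.15 to -0.38, limma adjusted p = 0.0066). With heights scaled by all 57 shared stretches, all 9 ecSE2 sites were called higher in height in the combination than in the 3 other plasmids, where 28.7% of all stretches were, and 7 of 9 were called lower than under ecSE2, where 8.2% were. Against the other plasmids, site 2 lost the call with unscaled heights (limma adjusted p = 0.336) or scaling outside chromosome 8 (0.0539), and site 9 with unscaled heights (0.0579).

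The ecSE3 sites centre on the start of PVT1. Sites 4 to 9 lie between 127792509 and 127807175 on chromosome 8, within PVT1 or less than 2 kb before it, and the combination kept 31.6% to 46.0% of the own height there. Site 7, inside PVT1, had 3.21, 3.58 and 3.80 in the combination libraries and 9.68, 10.4 and 9.89 in the ecSE3 libraries. Site 4 had 2.61, 3.03 and 3.18 in the combination libraries and 7.53, 8.14 and 7.54 in the ecSE3 libraries. At sites 4 to 7 no list of another plasmid or of the vector had a peak, so no ratio to those groups is given, and their calls rest on stand-in heights for the missing peaks. Site 3, before PVT1, had a peak in 1 of 3 combination lists, of 1.00, against 3.18, 3.40 and 3.17 in the ecSE3 libraries. With stand-ins for combination replicates 2 and 3 it kept 12.6%, the lowest of the 34 sites.

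Of the 10 ecSE3 sites, 7 were called higher in height in the combination than in the 3 other plasmids, where 23.8% of all stretches were, and 9 were called lower than under ecSE3, where 13.9% were. The 2 ecSE3 sites outside chromosome 8, chr3:161118873-161120189 and chr13:72573400-72574649, lie in no gene of the table used. Their own-plasmid height was 1.29 and 1.09 times the mean of the other plasmids, and neither was called different between the combination and the other plasmids (adjusted p = 0.281 and 0.95). Both had ranks near the limit of the rule. The site on chromosome 13 ranked 98, 90 and 60 under ecSE3 and 163, 150 and 105 in the vector lists, just inside. Just outside was a stretch in SNX20, a sorting nexin gene on chromosome 16, which ranked 79, 95 and 150 in the vector lists. One stretch, chr3:158033824-158034849, was a site of ecSE2, ecSE3 and ecSE4 and was left out. Its rank was 126, 74 and 56 in the combination lists and 159, 143 and 126 in the vector lists.

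The ecSE4 sites lie at MYC and on both sides of it. Sites 4, 5 and 6 are inside MYC, site 7 is 130 bp outside it, site 3 is in CASC11, the long noncoding RNA gene next to MYC, site 8 is in PVT1, and sites 1 and 2 are in the uncharacterised gene LOC105375751, about 1050.4 kb from the tallest site. At the 3 MYC sites the combination kept 32.1%, 31.5% and 38.2% of the ecSE4 height. Site 5 had 1.54, 1.74 and 1.73 in the combination libraries and 5.69, 5.08 and 5.13 in the ecSE4 libraries. Site 3 in CASC11 (chr8:127725672-127727815) had 2.22, 2.15 and 1.87 in the combination libraries and 6.86, 6.19 and 5.80 in the ecSE4 libraries, and no peak in any of the 12 libraries of other plasmids and the vector. Site 8 in PVT1 (chr8:127821798-127824356) had 0.752, 0.954 and 0.928 in the combination libraries, 3.73, 3.30 and 3.43 in the ecSE4 libraries and 0.125 to 0.393 in the 9 libraries of other plasmids. It kept 25.2%, the lowest share of an ecSE4 site. All 8 ecSE4 sites were called higher in height in the combination than in the 3 other plasmids, where 25.4% of all stretches were. Relative to ecSE4, 7 of 8 were called lower, where 9.84% were, and 8 of 8 with the replicate number as a block. No site of any of the 4 plasmids was called higher than under its own plasmid, where 22.1%, 23.8%, 26.2% and 21.3% of all stretches were for ecSE1, ecSE2, ecSE3 and ecSE4.

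Joined where sites of 1 plasmid lay within 10 kb of each other, the 34 sites form 13 groups. Counts of sites are therefore not counts of separate regions. Between the combination and the 3 other plasmids, 23.8% to 28.7% of all stretches were called higher in height and 0% to 2.46% lower. Over the 34 sites, 30 were called higher in the combination than in the 3 plasmids that did not choose them and 0 lower. This difference of means uses neither the libraries of the own plasmid nor the vector, but both enter the pooled spread, and a stretch that was also a site of another plasmid had been left out. At 14 sites all 9 libraries of the other plasmids had a peak, so that nothing was filled in for them, and 11 of these were called. At 8 sites none of the 9 had one. The combination libraries all lay above all 9 libraries of the other plasmids at 30 of the 34 sites, where the share over all stretches was 10.7% for ecSE1, 9.02% for ecSE2, 5.74% for ecSE3 and 7.38% for ecSE4. The deposited fold gave 17 sites called higher, 4 each for ecSE1, ecSE2 and ecSE3 and 5 for ecSE4, where 12.3%, 14.8%, 13.9% and 13.9% of all stretches were. Of these 17, 8 were sites without a peak in any of the 9 libraries and 6 had one in some, so that the lowest fold of the list stood in, and 3 (ecSE2 site 2 and ecSE4 sites 2 and 8) were among the 14 with a peak in all 9. Against this, 3 sites were called lower in fold while higher in height, ecSE1 site 2, ecSE2 site 4 and ecSE3 site 8, where 1.64%, 0.82% and 2.46% of all stretches were called lower in fold. At ecSE2 site 4, in CASC8, the fold was 2.29 ± 0.0199 in the combination (SD, n = 3) and 3.33 ± 0.262 in the other plasmids (SD, n = 9). The scaled height was 1.91 ± 0.107 and 0.448 ± 0.0602 in the same order, and the local background, scaled by its median over the 57 shared stretches, was 3.43 ± 0.0755 and 0.580 ± 0.0720. The fold call at ecSE3 site 8 (limma adjusted p = 0.0415) was lost when any 1 of 13 of the 18 libraries was left out, with adjusted p between 0.0508 and 0.169, and also with the replicate block (0.0512) and in lists of equal length (0.256), and that at ecSE1 site 2 (adjusted p = 0.0102) without combination replicate 1 (0.0734) or 2 (0.0595). Among the sites called higher in fold, ecSE2 site 2 lost the call without 1 library and ecSE4 site 7 without any 1 of 5.

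Against the own plasmid, the mean height in the combination was lower at 34 of 34 sites and the mean fold at 18 of 34. Sites were chosen for high ranks in the own-plasmid lists, which favours the own plasmid, so the calls are given beside their background and nothing is read from their number. The combination kept a median of 66.0% of the own-plasmid height at the ecSE1 sites, 53.1% at the ecSE2 sites, 38.2% at the ecSE3 sites and 35.6% at the ecSE4 sites, and 55.0% over all 34. By combination library the medians were 63.1% to 69.3%, 52.3% to 55.9%, 36.0% to 42.8% and 36.2% to 38.3%, so the ecSE1 and ecSE2 medians lie apart in every library and the ecSE3 and ecSE4 medians overlap. The 34 shares ran from 12.6% to 90.0%. The highest was that of ecSE3 site 10 on chromosome 13, where the combination height was 0.984 times the mean of the other plasmids. The 3 combination libraries lay below the 3 own-plasmid libraries at 31 sites, where 9.84%, 9.02%, 18.9% and 18% of all stretches did. Were the 700 ng shared equally among 4 plasmids and height proportional to dose and absent without the plasmid, the share would be 25%. The labels state neither the split nor the relation to dose. At 14 sites all 9 libraries of other plasmids had a peak, and there the share under such a split would be higher. Of the 34 sites, 33 lay above 25%, and the 95% interval lay wholly between 25% and 100% at 25, without correction for such height. By plasmid these were 6 of 7, 8 of 9, 7 of 10 and 4 of 8 sites. The own-plasmid lists chose the sites, which tends to lower these shares, so nothing is read from intervals under 100%. With the mean of the 9 libraries of other plasmids subtracted from both heights, stand-ins included, the median share was 40.6%. This was over the 30 sites whose own-plasmid height was at least 2 times that mean, with a range of 8.44% to 83.6%. The 20 sites that the combination lists also chose are among the 34. Both choices therefore act on them, and the choice that favours the own plasmid is not removed. Their median log2 ratio of heights was -0.86, against -0.86 for all 34.

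The same sites kept a median of 98.8% of the own-plasmid fold, with plasmid medians of 94.4%, 95.6%, 106% and 93.1%. The 95% interval of the log2 ratio of folds held 0 at 30 of 34 sites. The 2 called sites were ecSE2 site 1, lower, and ecSE3 site 5, higher, where 1.64% and 11.5% of all stretches were called in those directions. In the other directions 9.84% of all stretches were called for ecSE2 and 0.82% for ecSE3, and for ecSE1 and ecSE4, with 0 sites called, 10.7% and 9.84% higher and 1.64% each lower. At ecSE3 site 5, just before PVT1, the fold was 1.97 ± 0.120 in the combination and 1.53 ± 0.0730 under ecSE3 (SD, n = 3 each; log2 0.36, 95% interval 0.19 to 0.53, limma adjusted p = 0.00537). Its height was 2.77 ± 0.439 in the combination and 6.03 ± 0.129 under ecSE3. Local backgrounds moved with the heights: the scaled background in the combination was 62.3%, 54.7%, 34.5% and 36.6% of that under ecSE1, ecSE2, ecSE3 and ecSE4, as medians over their sites. At the MYC site 6 of ecSE4 it was 3.15 ± 0.274 in the combination and 8.78 ± 0.706 under ecSE4, with folds of 3.90 ± 0.190 and 3.85 ± 0.202 in the same order (SD, n = 3 each).

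**Figure D3:**
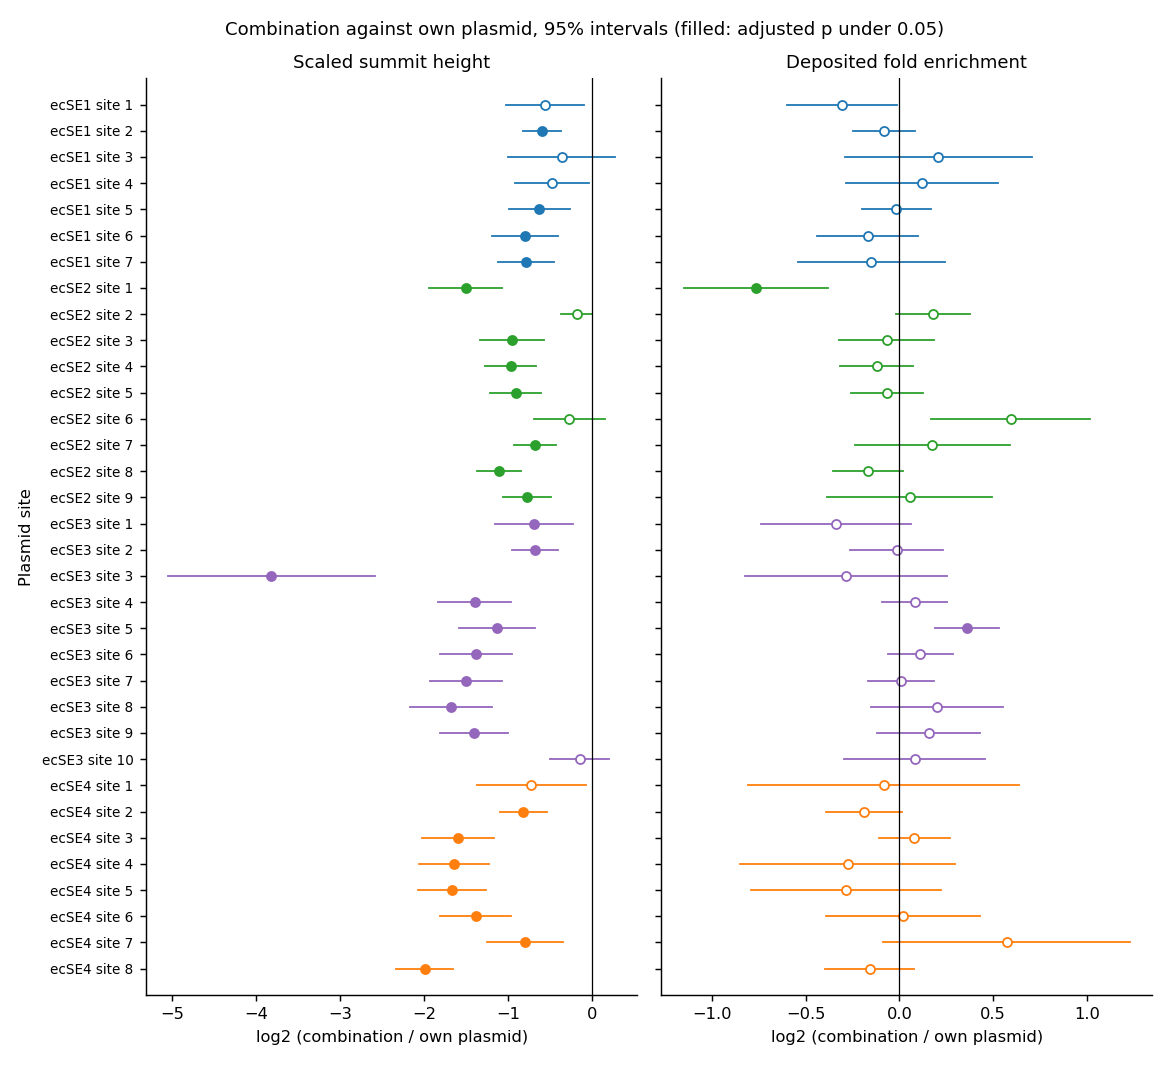
Log2 ratio of the combination over the own plasmid at each of the 34 sites, for scaled summit height (left) and deposited fold (right), with limma 95% intervals; filled points have an adjusted p under 0.05. Heights lie left of 0 at all 34 sites, while 30 of the 34 fold intervals hold 0.

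Covered length was lower at most sites, without passing the test at any. In a window of 5 kb around each site, peaks covered fewer bases in the combination than under the own plasmid at 29 of 34 sites, with a median difference of -339 bp and a range from -1411 to 331 bp. The call for covered length was made at 0 of 34 sites in either direction, where 10.7% to 13.1% of all stretches were called higher and 0% to 0.82% lower. The largest loss was at CASC11, ecSE4 site 3, with 2226 ± 629 bp in the combination and 3636 ± 578 bp under ecSE4 (SD, n = 3 each). PVT1 site 8 of ecSE4 had 1303 ± 77.6 bp in the combination and 2572 ± 13.0 bp under ecSE4 (log2 -0.93, adjusted p = 0.0765). Relative to the 3 other plasmids, 20 sites were covered over more bases in the combination, 5, 5, 4 and 6 by plasmid, where 13.9%, 14.8%, 13.9% and 15.6% of all stretches were.

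The stretch covered around the tallest summits was set beside that under the own plasmid. Within 5 kb of the tallest summit on each side, peaks covered 5512 ± 252 bp in the combination, 5936 ± 63.6 bp under ecSE1 and 656 ± 273 bp in the 9 libraries of other plasmids. Around the ecSE2 summit they covered 4979 ± 292 bp in the combination and 5046 ± 260 bp under ecSE2 (n = 3 each). Around the ecSE3 summit the values were 4560 ± 999 bp and 6120 ± 243 bp, combination first. In the same order they were 3966 ± 268 bp and 4228 ± 431 bp around the MYC summit of ecSE4. The 9 libraries of other plasmids had 827 ± 302 bp around the ecSE2 summit and 403 ± 307 bp around the ecSE3 summit. They had 1164 ± 1064 bp around the ecSE4 summit, with a range of 0 to 2690 bp. A further 6 stretches that are no site of a single plasmid passed the height test between the combination and all 4 plasmids, where 27% of the 122 were called higher and 0.82% lower. Of these, 5 were higher and lie between 5.5 and 23.5 kb from the tallest ecSE1 summit. The nearest of them, chr8:127241172-127243534, had 6.61 ± 0.355 in the combination and 7.98 ± 0.844 under ecSE1 (SD, n = 3 each), with means of 0.520, 0.473 and 0.497 under ecSE2, ecSE3 and ecSE4, and stayed off the list because it was among the 100 best of all 3 vector lists. The remaining one, at 126533715 on chromosome 8, was lower by 0.27 on the log2 scale (adjusted p = 0.0207).

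**Figure D4:**
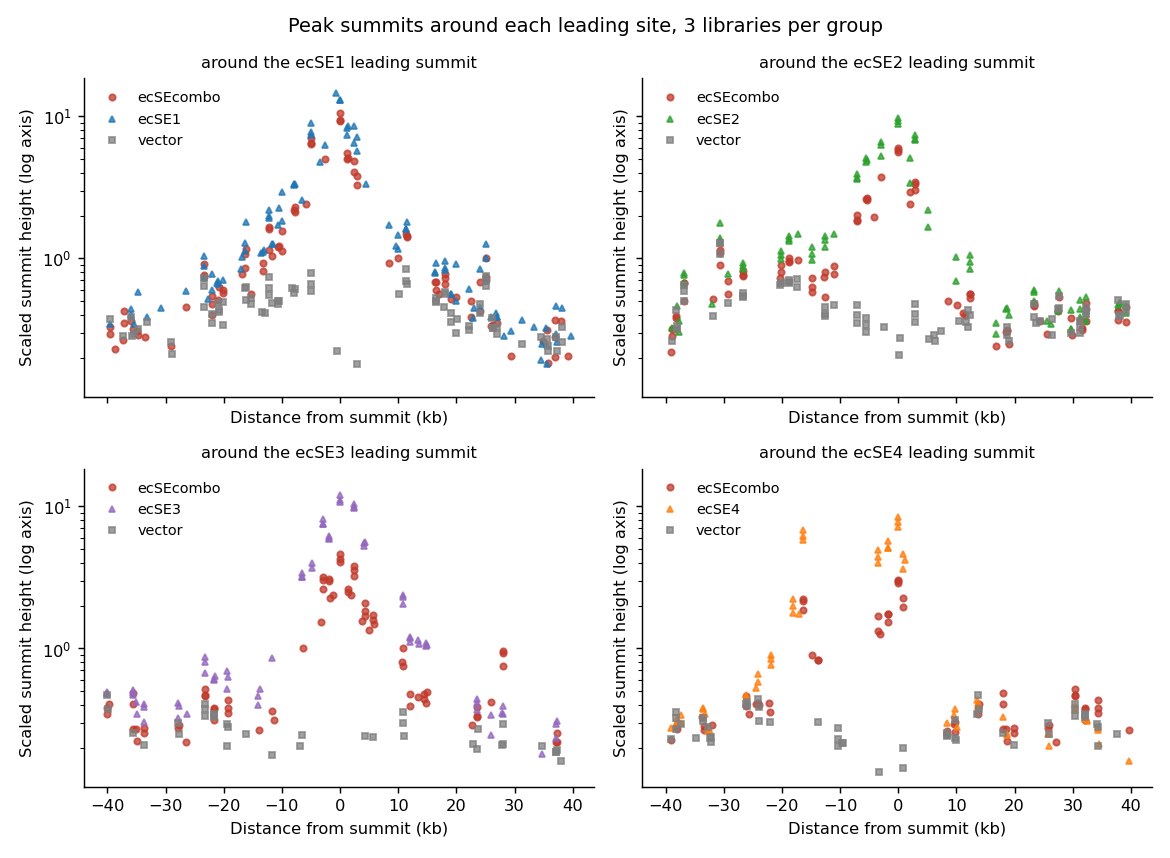
Scaled summit height (log axis) of every peak within 40 kb of the tallest summit of each plasmid, against distance in kb, for the combination, the own plasmid and the vector (3 libraries each). At the tallest summit of each panel the combination is below the own plasmid, at 72.0%, 62.3%, 38.4% and 38.2% of its mean height for ecSE1, ecSE2, ecSE3 and ecSE4.

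Among whole genes, the combination covered MYC, MIR1204 and CCAT2 about as far as the plasmid with sites there. Of 11964 genes with coverage in at least 3 libraries, counted with 2 kb on each side, 1 rose in the combination relative to the mean of the 4 single plasmids (0.00836%) and 0 fell (0%), by limma with Benjamini-Hochberg adjustment, while 469 (3.92%) had an unadjusted p under 0.05. Without combination replicate 1 or without ecSE4 replicate 2 the number was 2. The gene was MIR1204, a microRNA gene within PVT1, with 2136 to 2765 bp covered in the combination, 2627 to 2781 bp under ecSE3 and 0 bp in the other 4 groups (log2 of bp plus 100 higher by 3.51, SE 0.42, adjusted p = 0.000542). MIR1204 is 67 bp long, so these bases lie almost wholly in its flanks over the start of PVT1, and without flanks 0 genes were called. Peaks covered 3966 ± 268 bp of MYC in the combination, 4228 ± 431 bp under ecSE4, 2508 ± 244 bp under ecSE3, 723 ± 436 bp under ecSE2, 333 ± 307 bp under ecSE1 and 263 ± 283 bp in the vector (SD, n = 3 each). The combination and ecSE4 libraries overlapped and both lay above the rest. CCAT2 had 3659 ± 224 bp in the combination and 3338 ± 186 bp under ecSE2, and at most 1067 bp in any library of the other 4 groups. LRATD2 had 778 ± 187 bp in the combination and 1760 ± 62.6 bp under ecSE2, with 0 bp in the vector. None of MYC, CCAT2 and LRATD2 passed the test against the mean of 4 plasmids, which include the plasmids with peaks there (adjusted p = 0.888, 0.888 and 0.88).

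From a list of 29 genes of the MYC region and of the PDX1 and CDX2 region on chromosome 13, 22 were tested, 1 rose (MIR1204) and 0 fell. The median log2 difference was 0.07 over these 22 and -0.41 over all 11964 genes. Covered length can follow the number of peaks in a list. The single plasmids include ecSE1 replicate 2 with 125213 peaks, against 16369 to 22239 in the combination lists. How far list length enters these medians was not tested. CASC21 was covered over 37387 ± 3034 bp in the combination and 40149 ± 4578 bp under ecSE1, and PVT1 over 24339 ± 8534 bp in the combination and 30316 ± 1838 bp under ecSE3 (SD, n = 3 each). These long genes carry peaks in every library, with 34490 ± 2224 bp of CASC21 covered in the vector. PDX1, a transcription factor gene of the pancreas and gut, had 1641 ± 845 bp in the combination and 884 to 1599 bp as means of the single plasmids.

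**Figure D5:**
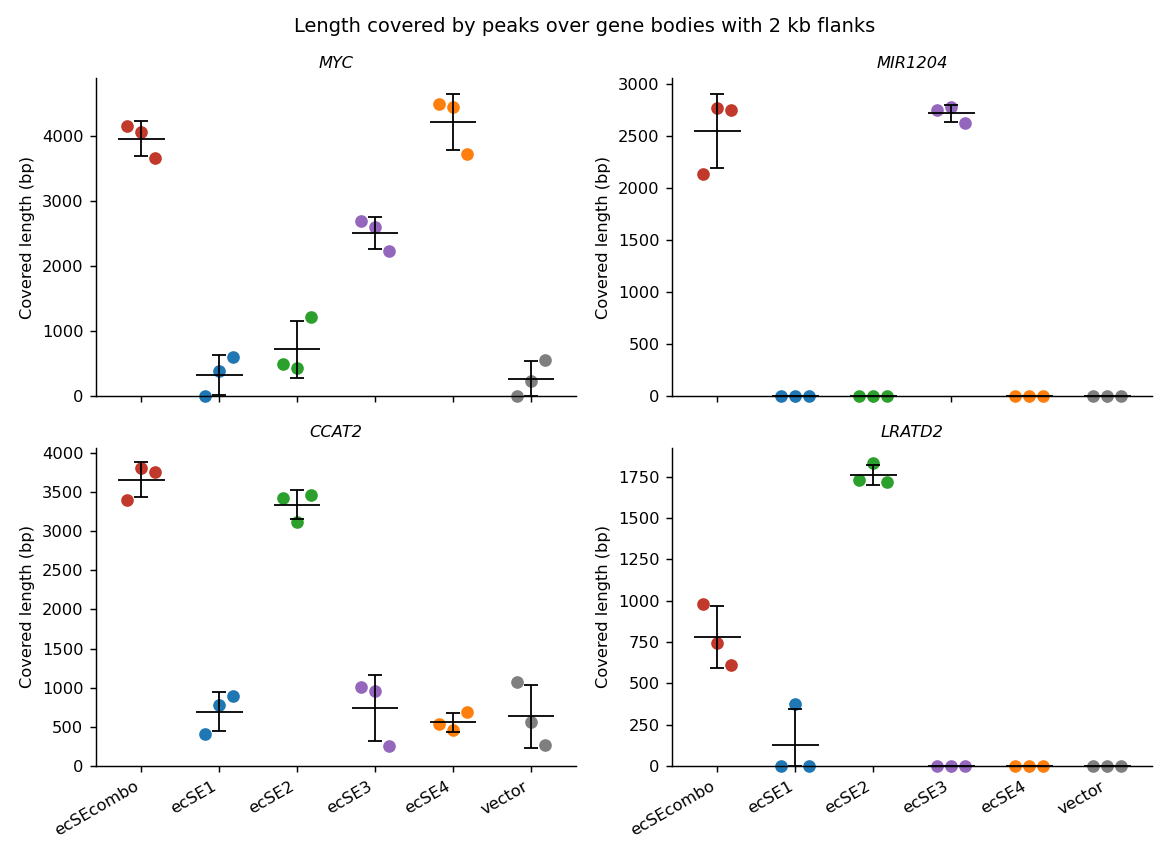
Length covered by peaks (bp, gene with 2 kb on each side) over MYC, MIR1204, CCAT2 and LRATD2 by group. Points are libraries and lines with bars mean ± SD (bars end at 0). The combination is near ecSE4 at MYC, near ecSE3 at MIR1204 and near ecSE2 at CCAT2, and below ecSE2 at LRATD2.

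The share of all peaks within 2 Mb of the start of MYC on each side did not separate the groups. It was 2.27%, 2.76% and 2.45% in the combination lists (mean 2.49 ± 0.251%, SD, n = 3) and 0.667% to 2.97% in the 12 single-plasmid lists (mean 1.98 ± 0.654%, SD, n = 12). The difference of 0.513 points had p = 0.213 in a two-sided exact permutation test over the libraries. The lowest share was that of ecSE1 replicate 2, the longest list.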

How the data were processed

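The authors deposited 1 peak list for each library. The genome build is hg38, and the tools named, without their roles, are MACS2 2.2.7.1, Bowtie2 2.3.5, Trim Galore 0.6.6, bedtools and SAMtools, per the submitters' processing notes. Each deposited peak has a score, a fold (ratio of summit to local background), and -log10 of a p-value and of a q-value. The score was not used. No read totals entered the analysis and the depth of each library is unknown. The handling of duplicate reads and any control library are not given in the sources used here.

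Peaks were ranked by -log10 q, then fold. Whole fragments at the summit were recovered for at least 99.994% of peaks per list, with a tolerance of 0.0005 in -log10 p, or a relative 1e-05 where larger. The summit is the authors' pileup, so its height follows depth, copy number and mark together, and scaling by 57 shared peaks (41 on chromosome 8) removes only what these share. The local background is estimated around the site and can hold the marked stretch itself, which lowers the fold of wide stretches. A list without a peak got the lowest fold of the list, or the lowest height within 100 kb (of the list where there was none).

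Contrasts were fitted with limma 3.58.1 (R 4.3.3) on log2 values over 6 groups of 3 libraries, with Benjamini-Hochberg adjustment over all 122 stretches or all genes, at 0.05. Covered lengths used a pseudocount of 100 bp. Genes came from RefSeq (GRCh38.p14), which gave no exons, so exon and UTR positions are not given. The fits and the recovery of heights were run on simulated data. The simulated peaks followed the formula that the recovery inverts, so this checks the code and not the formula. Named sites were up to 6 per plasmid with the lowest mean rank and every site within 2 kb of a listed gene; ecSE3 sites 1, 3 and 10 and the stretches that are no plasmid site were named after their values were seen. Members and gene lists were chosen with earlier results of these data known. The summit heights were added after seeing the data. Deviations from the group means correlated above 0.1 in all 3 same-numbered pairs of the combination and ecSE4 (0.266, 0.128 and 0.546), though the labels give no pairing, and not in every pair of the combination with ecSE1, ecSE2, ecSE3 or the vector. No 2 lists shared more than 0.208% of their peaks exactly. The other software was matplotlib 3.10.9, scipy 1.17.1, pandas 2.3.3 and numpy 2.4.6 under Python 3.11.15.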

Additional observations from a re-analysis of the deposited data

How the results depend on the processing

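Alternatives fixed earlier were 50 or 200 best peaks, bins of 5 kb, sites without any vector peak, lists of equal length, only peaks with -log10 q of 5 or more, wider or narrower windows, another scaling, a replicate block and each library left out. Those on height were chosen after seeing the data. The median log2 ratio of folds (-0.02) became -0.86 with scaled height in its place. The median log2 ratio of heights (-0.86) was -1.39 at the 11 sites without any vector peak, -1.02 scaled outside chromosome 8 and -1.12 unscaled. Both the number of sites and the share called against the 3 other plasmids changed. In fold the calls numbered 11 of 26 with 5 kb bins, 10 of 11 without a vector peak and 2 of 13 with a peak in all lists. In covered length they numbered 8 of 26 and 11 of 11, and in height 19 of 26, 11 of 11 and 10 of 13. Against the own plasmid, fold calls (2) were 4 after scaling, 0 of 13 with a peak in all lists and 0 of 20 chosen from the combination. Height calls (27) were 10 of 11, 10 of 13 and 16 of 20. For these and the following repeats the share of all stretches called is not given, so these counts have no background beside them. Gene calls (1) were 0 without flanks and 2 in lists of equal length. The cause was not tested.

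Leaving out each library in turn gave -0.04 to -0.00 for the fold ratio, -0.93 to -0.85 for the height ratio, -382 to -249.8 bp for covered length, 16 to 18, 17 to 22 and 30 calls against the other plasmids (fold, covered length, height), 2 to 3 and 26 to 28 against the own plasmid (fold, height), 1 to 2 genes, and 0.378 to 0.626 points around MYC. Over all groups, same-numbered deviations correlated between -0.339 and 0.546, above 0.1 in 22 of 45 pairs, and 10 of 18 libraries correlated best with their own number. With the replicate block, 18 fold, 19 covered-length and 30 height calls were made against the other plasmids, and p was 0.216 around MYC. Covered length was then called different from the own plasmid at 1 ecSE2 and 1 ecSE3 site. The fold ratio, near 0, turned positive with 50 best peaks (0.01), no vector peak (0.02), sites from the combination (0.01) and scaled folds (0.01), by less than its replicate spread. By plasmid its sign changed for ecSE2 (0.05 from the combination, 0.03 scaled, 0.02 in bins, 0.01 with 50 best peaks and without combination replicate 3), ecSE3 (-0.02 in bins) and ecSE4 (0.02 without a vector peak). No named call reversed. Of the 20 named fold calls and 28 named height calls, 24 of 465 and 3 of 681 repeats lost the call.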
